A study of Saccharomyces cerevisiae with 4 samples.

Results

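The enzymes of lower glycolysis in budding yeast, Saccharomyces cerevisiae, are encoded by 10 genes whose chromatin was examined here for contact with 2 proteins of the nuclear pore. The genes were chosen by the open reading frame (ORF) names that the array files give to each probe: FBA1 (YKL060C), TPI1 (YDR050C), TDH1 (YJL052W), TDH2 (YJR009C), TDH3 (YGR192C), PGK1 (YCR012W), GPM1 (YKL152C), ENO1 (YGR254W), ENO2 (YHR174W) and CDC19 (YAL038W). They are 10 of 5659 genes annotated in the files and carry 65 probes, all of them used in every library, of 41529 to 41548 probes that the authors did not exclude. Of the 65 probes, 34 lie inside the ORFs, 25 upstream (11 annotated as promoter and 14 as divergent promoter) and 6 downstream.

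Lower glycolysis splits fructose 1,6-bisphosphate into triose phosphates and carries them to pyruvate, with ATP made at the phosphoglycerate kinase and pyruvate kinase steps. In yeast growing on glucose these genes are among the most heavily transcribed by RNA polymerase II, driven by the activators Rap1 and Gcr1. Several steps have more than 1 gene: TDH3 is the main glyceraldehyde-3-phosphate dehydrogenase gene of growing cells and TDH1 is known for use in slow growth and stationary phase, ENO2 is the enolase induced by glucose and ENO1 the one used in gluconeogenesis, and PYK2 is a minor pyruvate kinase beside CDC19.

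The pore's inner ring contains Nup157p and Nup170p, a pair of related scaffold proteins. Chromatin immunoprecipitation on tiling arrays (ChIP-chip) measured 4 groups of 1 library each, all from haploid MATa strains carrying his3∆1 and leu2∆0 as well as ura3∆0 and lys2∆0, with a 9xMyc tag on the pore protein linked to the hphR marker. They were Nup157 in an otherwise wild-type strain, Nup170 in an otherwise wild-type strain, and Nup170 in strains labelled sir4∆::natR and yku70∆::natR. SIR4 is known for silencing, and YKU70 for encoding 1 chain of the Ku heterodimer at chromosome ends. Cells grew in YPD, a glucose medium, at 30 °C to an OD600 of 1, were fixed with 1% formaldehyde for 1 h, and gave sheared chromatin of about 400 bp, from which the tagged protein was precipitated through its Myc epitopes. The ChIP DNA carried Cy5, and DNA from the strain's whole cell extract carried Cy3. Each library was hybridised 2 times. The hybridisations are repeat measurements and not separate cultures, so no difference between libraries could be tested, and ± below is the SD between the 2 hybridisations. An untagged strain was not analysed here.

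The extract channel went against some of the labels. SIR4 had 15 of 15 probes above blank spots in every library, with the library labelled sir4∆ at 70.6% of the others, and YKU70 had 7 of 7, with the library labelled yku70∆ at 96.6%. LEU2 and URA3 had 0 of 4 probes each above blank in every library, while LYS2 had 0 of 16 in the Nup157 library and 16 of 16 in each Nup170 library. The deletions are therefore named below as labelled. Over all genes with an ORF value, Pearson's r between the hybridisations of a library was 0.747 to 0.812, across genes that are not independent replicates. The lower-side spread of the probes, taken as the median minus the 16th percentile, was 0.504 for Nup157 and 0.182 to 0.222 for the Nup170 libraries.

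A probe's value is its log2 ratio of ChIP to extract signal, averaged over the 2 hybridisations after each was centred on its median over the nuclear probes, so 0 is the typical probe of the genome. The ORF value of a gene is the mean over its probes inside the ORF, with at least 2 needed, and the upstream value is the mean over its promoter probes. GPM1 has 1 ORF probe, so its single probe is given but 9 of the 10 genes enter medians and counts over ORF values. Where 4 values stand together, they belong, in order, to Nup157, Nup170 in wild type, Nup170 in the strain labelled sir4∆ and Nup170 in that labelled yku70∆. Positions are those of the files, for which the sources used here name no genome build.

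All 4 libraries held high ratios over the coding regions of these genes. The median ORF value of the 9 genes was 1.37 for Nup157 and 1.16, 0.89 and 1.07 for Nup170, beside medians over all genes of 0.022, 0.0044, -0.0014 and 0.0071. With the trend of ratio on intensity removed these medians were 0.70, 1.02, 0.72 and 0.78, so Nup157 no longer stood above Nup170 in wild type, and with normexp background correction they were 2.16, 2.15, 1.66 and 2.06. An ORF value of 0.5 or more, which is 1.41-fold, was reached by 9, 8, 7 and 8 of the 9 genes, where 11.8%, 3.39%, 1.52% and 2.69% of all genes reached it. In both hybridisations separately, the count was 8, 7, 7 and 8 of 9, against 7.58%, 1.76%, 1.2% and 2.16% of all genes. Among the highest 1% of genes in each library were 7, 6, 7 and 7 of the 9, and at least 33 of the 34 ORF probes lay above 0 in both hybridisations of every library, where 50.9% to 53.8% of all probes lay above 0 on the mean. The hybridisations of a library were furthest apart in the Nup170 wild-type library, with medians of 1.48 and 0.90. They had medians of 1.20 and 1.61 for Nup157, 0.80 and 0.93 for the library labelled sir4∆, and 1.11 and 1.03 for that labelled yku70∆.

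FBA1, the aldolase that opens lower glycolysis, is covered by 6 probes on chromosome 11 between 326205 and 327679, 4 of them in the ORF. Its ORF value was 0.96 ± 0.14 for Nup157, and 1.16 ± 0.45, 0.76 ± 0.054 and 1.07 ± 0.058 for Nup170. TPI1, triose phosphate isomerase, has 5 probes on chromosome 4 from 555714 to 556651, with ORF values of 1.37 ± 0.34, 0.79 ± 0.27, 0.78 ± 0.18 and 0.93 ± 0.011. Both genes were far above the median gene in every hybridisation. One of the 4 TPI1 ORF probes, 724 bp from the gene's start, was near the blank spots in the extract channel of every library, and without it the TPI1 values were 1.47, 0.94, 0.89 and 1.01.

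Glyceraldehyde-3-phosphate dehydrogenase, which couples oxidation to the capture of phosphate, is encoded by TDH1, TDH2 and TDH3. TDH3, with 7 probes on chromosome 7 between 882548 and 884349 and 2 of them in the ORF, had the highest value of the 9 genes in every library: 1.72 ± 0.32, 1.70 ± 0.47, 1.39 ± 0.099 and 1.63 ± 0.026. Among all genes measured it ranked 1, 1, 1 and 2 from the top. TDH2, on chromosome 10 between 453336 and 455071, followed with 1.44 ± 0.31, 1.26 ± 0.51, 1.01 ± 0.097 and 1.23 ± 0.022 and ranked 8, 11, 10 and 11. TDH1, on the same chromosome between 337921 and 338756, was the lowest of the 9 in every library, at 0.65 ± 0.31, 0.24 ± 0.20, 0.38 ± 0.11 and 0.40 ± 0.0058, and ranked 294, 426, 146 and 194. The hybridisations of TDH1 did not overlap those of TDH3 in any library. TDH1 alone accounts for the gene below 0.5 in the Nup170 wild-type and yku70∆-labelled libraries, and TDH1 with ENO1 for the 2 below it in the library labelled sir4∆.

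PGK1, phosphoglycerate kinase, has 6 ORF probes among 7 on chromosome 3 between 137441 and 139000, and its ORF value was 1.29 ± 0.12, 1.16 ± 0.31, 0.89 ± 0.19 and 1.04 ± 0.029. GPM1, phosphoglycerate mutase, is covered on chromosome 11 between 163213 and 164844, mostly outside its ORF. Its 1 ORF probe stood at 1.01 ± 0.66, 0.86 ± 0.31, 0.68 ± 0.048 and 0.82 ± 0.034, and the wide spread in the Nup157 library came from hybridisations of 0.54 and 1.47.

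Enolase makes phosphoenolpyruvate, the substrate of pyruvate kinase. ENO2, on chromosome 8 between 450945 and 452313, reached 1.70 ± 0.22, 1.44 ± 0.42, 1.05 ± 0.073 and 1.37 ± 0.067 and ranked 2, 4, 8 and 4 among all genes. ENO1, on chromosome 7 between 1000174 and 1002281, stood lower in every library, at 1.14 ± 0.25, 0.61 ± 0.18, 0.40 ± 0.052 and 0.62 ± 0.030. CDC19, the pyruvate kinase of growing cells, has the densest cover, with 7 ORF probes of 12 on chromosome 1 between 70747 and 73312, and its ORF value was 1.52 ± 0.26, 1.25 ± 0.35, 0.94 ± 0.016 and 1.15 ± 0.084. TDH3 and ENO2 held the highest places among the 9 in each library, while TDH2, CDC19, PGK1 and FBA1 had overlapping hybridisations in the Nup170 wild-type library.

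**Figure D1:**
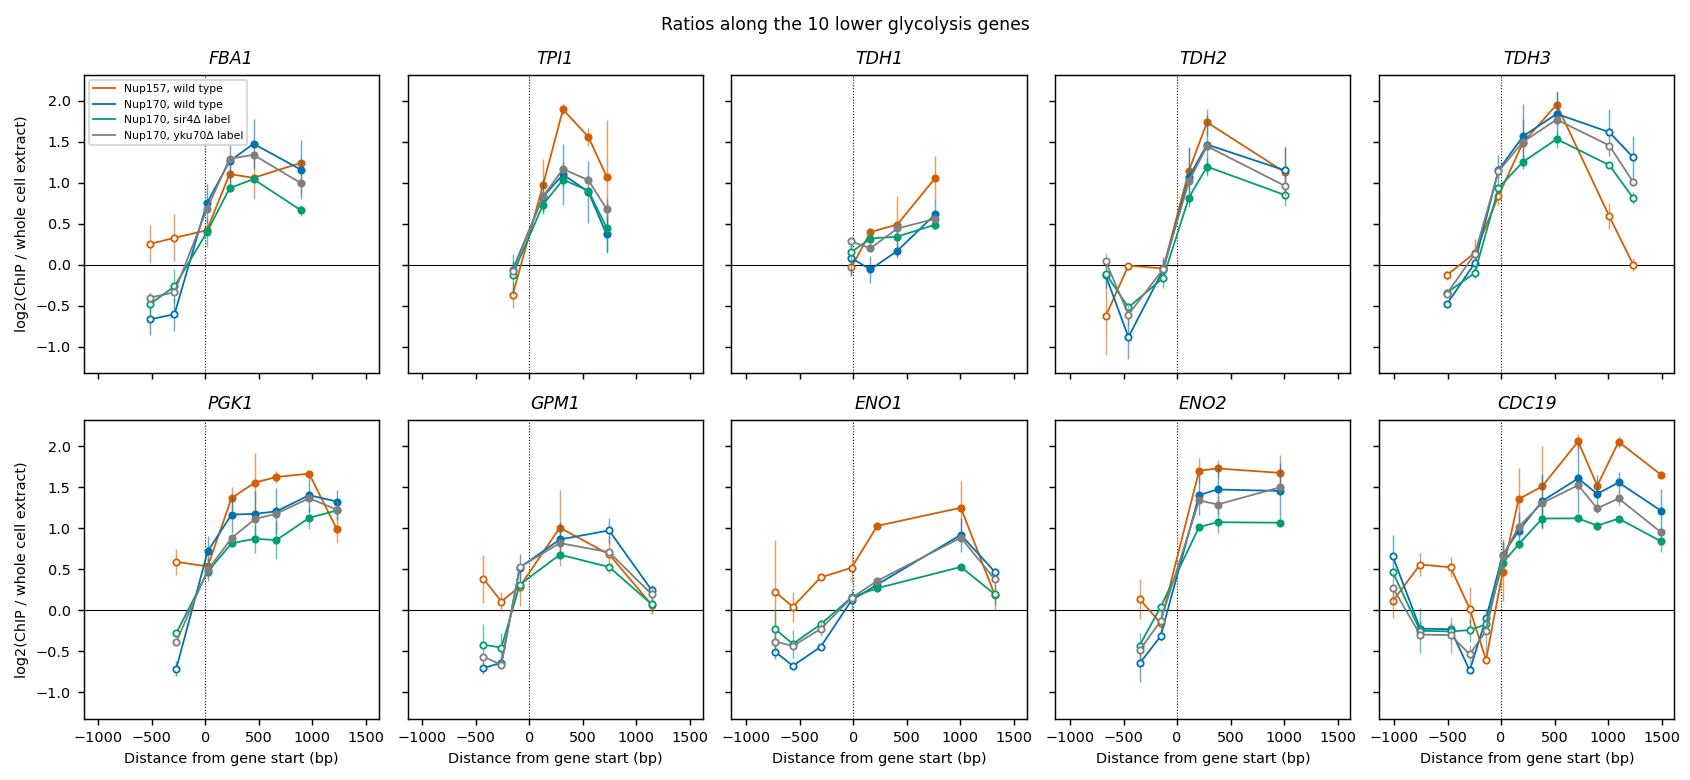
Ratio of ChIP to extract signal, as log2 (vertical axis), at each probe of the 10 genes, against its distance in bp from the gene's start (horizontal axis), with 1 line per library, filled points for ORF probes, open points for other probes, and vertical bars joining the 2 hybridisations. The ratio was low upstream and high within the ORF of most genes, while TDH1 stayed lower than TDH2 and TDH3.

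The medians rose between the last 250 bp upstream and the first 250 bp of the gene. Of the 9 upstream probes there, 4, 5, 5 and 5 were above 0, against 42.8%, 27.1%, 33.3% and 29.4% of all such probes. With chromatin sheared to about 400 bp, the probes cannot place the start of the rise more closely. Of the probes grouped by distance from the gene's start, the 9 probes in the last 250 bp upstream had medians of -0.034, 0.019, 0.035 and 0.13, and the 12 probes in the first 250 bp after the start had 1.07, 0.90, 0.77 and 0.85. The median was 1.53, 1.25, 1.04 and 1.23 at 250 to 500 bp (8 probes), 1.56, 1.20, 0.90 and 1.18 at 500 to 1000 bp (11 probes), and 0.98, 1.21, 0.84 and 0.96 at 1000 to 1500 bp (9 probes). The stretches from 500 bp on also hold the downstream probes, so their medians are not of ORF probes alone. The first ORF probe was the lowest of its gene in 8, 8, 8 and 7 of the 9 genes. TDH2, TDH3 and ENO1 have 2 ORF probes each, and the share over all genes was not computed. Over all probes the medians were 0.029, -0.041, -0.022 and -0.011 in the first 250 bp. They were 0.12, 0.0087, 0.0041 and 0.018 at 250 to 500 bp. CDC19 shows the course most fully. In the Nup170 wild-type library its probes read -0.74 at 293 bp upstream and -0.10 at 140 bp upstream, then 0.68, 0.97, 1.33 and 1.60 at 16, 165, 385 and 721 bp into the gene, and 1.42, 1.56 and 1.21 at 899, 1099 and 1495 bp. The Nup157 library ran the same way over those ORF probes, from 0.47 at 16 bp to 2.06 at 721 bp and 1.65 at 1495 bp.

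PGK1 followed the same course. In the Nup170 wild-type library its ORF probes read 0.72, 1.17, 1.17, 1.20, 1.40 and 1.32 at 23, 246, 463, 665, 971 and 1231 bp, and in the Nup157 library they read 0.53, 1.37, 1.56, 1.62, 1.66 and 0.98. The last probe was thus the second highest of the ORF for Nup170 in wild type and the second lowest for Nup157. FBA1 read 0.75, 1.26, 1.47 and 1.16 at 15, 228, 451 and 896 bp for Nup170 in wild type, with its top in the middle of the probed stretch, and 0.42, 1.10, 1.06 and 1.24 for Nup157.

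TPI1 had its top 316 bp into the gene in every library, at 1.89, 1.10, 1.04 and 1.17, and its probe near blank at 724 bp read 1.07, 0.37, 0.45 and 0.68. TDH1 took another form: at 162 bp it read 0.40, -0.059, 0.32 and 0.20, at 412 bp 0.49, 0.17, 0.34 and 0.44, and at 766 bp 1.05, 0.61, 0.49 and 0.56. Its values were thus lowest at the front of the gene, and the probe at 766 bp was above 0.5 in 3 of the 4 libraries. That probe still lay below the medians of the 10 genes at 500 to 1000 bp, which were 1.56, 1.20, 0.90 and 1.18.

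TDH3 differed from this course in that its promoter probe 24 bp before the start already read 0.84, 1.15, 0.93 and 1.14. Several ORFs have long stretches without an annotated probe: 280 to 1009 bp in TDH2, 520 to 1012 bp in TDH3, 225 to 1007 bp in ENO1 and 378 to 964 bp in ENO2, so the course over their middle was not measured. Past the ORFs, the 6 downstream probes had medians of 0.39 for Nup157 and 1.06, 0.67 and 0.83 for Nup170, against -0.19 and 0.10, 0.11 and 0.072 over all downstream probes. The Nup157 library lay below the Nup170 wild-type library by a median difference of -0.29 at these 6 probes and -0.33 over all downstream probes, so the gap was about as wide across the genome. Downstream of TDH3 the probe at 1012 bp read 0.59 for Nup157 and 1.61, 1.21 and 1.45 for Nup170, and that at 1235 bp read 0.00019, 1.31, 0.81 and 1.01. For TDH3 the ratio thus stayed high past the gene in the Nup170 libraries and was lower in the Nup157 library. Downstream of GPM1, values fell from 0.68, 0.97, 0.53 and 0.71 at 747 bp to 0.066, 0.24, 0.073 and 0.19 at 1144 bp.

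Upstream regions stood far below the ORFs. The median upstream value of the 10 genes was 0.19 for Nup157 and -0.32, -0.18 and -0.23 for Nup170, with medians over all genes of -0.071, -0.14, -0.077 and -0.10. Upstream values were below 0 in both hybridisations for 2, 7, 6 and 8 of the 10 genes, where 40.9%, 60.3%, 49.6% and 59.0% of all genes were. ORF values exceeded upstream values by a median of 1.40, 1.47, 1.13 and 1.37 over the 9 genes, against 0.14, 0.17, 0.093 and 0.13 over all genes. With normexp these medians of the 9 genes were 1.92, 2.75, 1.64 and 2.63, and for Nup157 with the intensity trend removed 0.85. A difference of 0.5 or more was found for 9, 8, 8 and 8 of the 9, against 22.3%, 10.2%, 4.41% and 5.89% of all genes. The ORF was above the upstream region in both hybridisations for 9 of 9 genes in each library, against 45.5%, 61.8%, 50.7% and 61.1% of all genes.

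By gene, PGK1 had the highest upstream value for Nup157, with 0.75 and 0.43 in its hybridisations, and the lowest for Nup170 in wild type, with -0.62 and -0.81. FBA1 read 0.55 and 0.031 for Nup157 and -0.84 and -0.44 for Nup170 in wild type. ENO1 read 0.039 and 0.55 for Nup157 and -0.32 and -0.44 for Nup170 in wild type. For these genes the hybridisations of the Nup157 and Nup170 wild-type libraries did not overlap. CDC19 read 0.14 and 0.10 for Nup157 and -0.084 and -0.17 for Nup170 in wild type. TDH3 was the single gene above 0 in both hybridisations of all 4 libraries, with upstream values of 0.28, 0.23, 0.16 and 0.30. These rest on the probe 24 bp before the start, at 0.84, 1.15, 0.93 and 1.14. The other TDH3 promoter probes read 0.14, 0.019, -0.10 and 0.13 at 245 bp and -0.13, -0.49, -0.34 and -0.36 at 508 bp. TPI1 and TDH2 were below 0 on the mean in every library, at -0.37, -0.063, -0.12 and -0.082 for TPI1 and -0.23, -0.36, -0.26 and -0.21 for TDH2. The upstream value rests on 1 probe in PGK1, TPI1 and TDH1, at 271, 154 and 16 bp before the start, all within the fragment length of about 400 bp from the ORF.

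In the Nup170 wild-type library the gap was 1.93 for ENO2, 1.88 for PGK1 and 1.80 for FBA1, the widest of the 9 genes. PGK1 went from -0.71 upstream to 1.16 in the ORF, and FBA1 from -0.64 to 1.16. TDH1 had the narrowest gap in the Nup170 libraries, 0.16, 0.23 and 0.12, with upstream values of 0.079, 0.15 and 0.28. In the Nup157 library the gap was 0.68 for TDH1, 0.67 for FBA1 and 0.70 for PGK1, and it was 1.74 for TPI1 and 1.71 for ENO2.

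The Nup157 library stood above the Nup170 libraries more than 250 bp upstream of the gene's start. Beyond 500 bp upstream, 7 probes had a median of 0.11 for Nup157 (-0.15 and 0.23 in its hybridisations) and -0.49, -0.25 and -0.36 for Nup170. There the Nup157 library exceeded the Nup170 wild-type library by a median of 0.72 (0.26 to 0.73 over the 4 pairings of hybridisations). The median difference was -0.10 over all probes at that distance. It was above 0 on the mean at 5 of the 7 probes, against 43.9% of all probes. In all pairings 5 of the 7 were above 0 and 1 was below, and no share of all probes was computed for this. The stretch 250 to 500 bp upstream was singled out after its values were seen, so its values are a description. The 9 probes there, from 7 genes, had a median of 0.33 for Nup157 (0.38 and 0.089 in its hybridisations) and -0.65, -0.28 and -0.49 for Nup170. Of these 9 probes, 8 were above 0 in the Nup157 library and 0 in each Nup170 library. Of all probes at that distance from a gene, 50.0% were above 0 for Nup157 and 34.3%, 38.1% and 35.2% for Nup170. PGK1 at 271 bp upstream read 0.59 for Nup157 and -0.71, -0.28 and -0.39 for Nup170, and FBA1 at 288 bp upstream read 0.33 and then -0.61, -0.27 and -0.34. TDH2 at 455 bp upstream was the exception in the Nup157 library, at -0.013, and read -0.88, -0.52 and -0.61 for Nup170. The probe values of the Nup157 library exceeded those of the Nup170 wild-type library by a median of 0.85, with a range of 0.72 to 1.13 over the 4 pairings of hybridisations, and did so at 9 of 9 probes in all pairings. Over all 2198 probes at that distance from a gene the median difference was 0.061, and 54.6% of them were above 0 on the mean. Their share above 0 in all pairings was not computed. With the trend of ratio on intensity removed, the difference was 0.52. In the same region the library labelled sir4∆ exceeded the Nup170 wild-type library by 0.28 (0.014 to 0.61) and that labelled yku70∆ by 0.20 (0.046 to 0.24). Over all probes at that distance these differences were 0.032, with 57.0% of probes above 0, and 0.021, with 54.7% above 0. These comparisons share the Nup170 wild-type library.

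The channels were also examined apart, each as log2 signal centred on its median. At 250 to 500 bp upstream the ChIP channel had medians of 0.54 for Nup157 and -0.035, 0.35 and 0.24 for Nup170, while the extract channel had 0.29, 0.59, 0.57 and 0.63. The extract signal was above its genome median at 8 of these 9 probes in each Nup170 library and at 7 in the Nup157 library. Over all probes at that distance the extract channel had medians of -0.13, -0.035, -0.061 and -0.052. The share of all probes above the genome median was not computed. The low ratios upstream in the Nup170 libraries thus stood at probes where the extract channel was bright and the ChIP channel, in 2 of the 3 libraries, was also above its median. Over the 34 ORF probes the ChIP channel had medians of 1.24, 1.09, 1.05 and 1.21. The extract channel had -0.044, -0.0054, 0.21 and 0.057, so at the median the high ORF ratios stood in the ChIP channel. This did not hold alike for every gene. Over its ORF, CDC19 had extract means of -0.48, -0.33, -0.17 and -0.18, beside ChIP means of 1.04, 0.93, 0.79 and 0.98. TPI1, with its probe near blank, had extract means of -1.15, -0.95, -0.91 and -0.95. TDH1, GPM1, ENO1 and ENO2 had extract means above 0 in every library. At 1000 to 1500 bp, a stretch that holds downstream as well as ORF probes, the ChIP channel was lower, at 0.21, 0.54, 0.23 and 0.34. The extract channel there was at -0.57, -0.52, -0.64 and -0.59. The part of the extract signal in the upstream values was not tested.

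**Figure D2:**
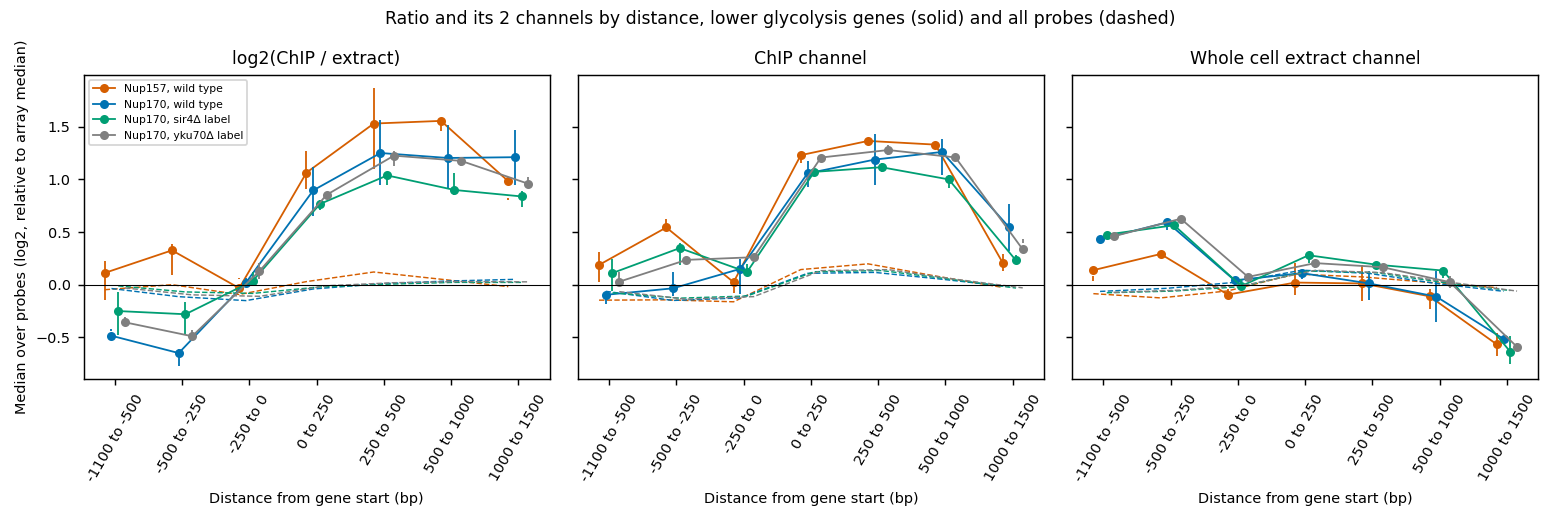
Median log2 ratio, ChIP channel and whole cell extract channel (vertical axes) by distance from the gene's start in bp (horizontal axis), with solid lines for the 10 genes, dashed lines for all probes and bars joining the 2 hybridisations. At 250 to 500 bp upstream the extract channel of the 10 genes stood at 0.29 to 0.63, and over the ORF the ChIP channel rose above all probes.

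Over the 65 probes the 3 Nup170 libraries ran closely together, with Pearson's r of 0.976 to 0.986 between them, and the Nup157 library had r of 0.782 to 0.816 with each. Its own hybridisations had r of 0.824, against 0.943 to 0.971 for the Nup170 libraries. Over the 25 upstream probes, r was 0.150 between Nup157 and Nup170 in wild type, 0.395 between the hybridisations of Nup157, and 0.942 to 0.952 among the Nup170 libraries. These correlations describe probes that share genes, arrays and base composition.

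Genes that serve the same step but are used differently in growing cells were then set side by side. The ORF value of TDH3 exceeded that of TDH1 by 1.07, 1.46, 1.01 and 1.23, and that of TDH2 by 0.28, 0.44, 0.39 and 0.40. For TDH3 against TDH1 the hybridisations gave 1.06 and 1.08 for Nup157 and 1.65 and 1.28 for Nup170 in wild type. ENO2 exceeded ENO1 by 0.56, 0.83, 0.65 and 0.75, with 1.00 and 0.66 in the hybridisations of the Nup170 wild-type library, the widest spread of this pair. CDC19 exceeded PYK2 by 1.07, 1.40, 0.97 and 1.26, with PYK2 itself at 0.45 ± 0.22, -0.15 ± 0.042, -0.025 ± 0.090 and -0.11 ± 0.081. In all 4 pairs the gene named first was higher in both hybridisations of each library, and the median over the pairs was 0.81, 1.11, 0.81 and 0.99. It was 1.19, 1.86, 1.44 and 1.72 with normexp, and 0.50, 0.61, 0.42 and 0.53 over all probes of each gene. These 4 pairs are not independent, since TDH3 stands in 2 of them. The ORF probes of the paired genes lie at unlike distances from the gene's start. The part of probe position in these gaps was not tested.

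GPM2 and GPM3 are relatives of GPM1 with little or no mutase activity. GPM2 stood at -0.63 ± 0.23, -0.16 ± 0.029, -0.061 ± 0.060 and -0.0097 ± 0.018, and GPM3 at 0.043 ± 0.059, -0.099 ± 0.18, -0.16 ± 0.071 and -0.11 ± 0.085. The single ORF probe of GPM1 exceeded GPM2 by 1.64, 1.02, 0.74 and 0.83 and GPM3 by 0.96, 0.96, 0.83 and 0.92. The enolase-related genes ERR1 and ERR2 had no probe annotated to them and ERR3 had 1 promoter probe, so they have no ORF value. None of PYK2, GPM2 and GPM3 reached 0.5 in any library. TDH1, TDH2 and TDH3 have closely similar coding sequences, as do ENO1 and ENO2, and signal shared between such copies on a probe was not tested.

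**Figure D3:**
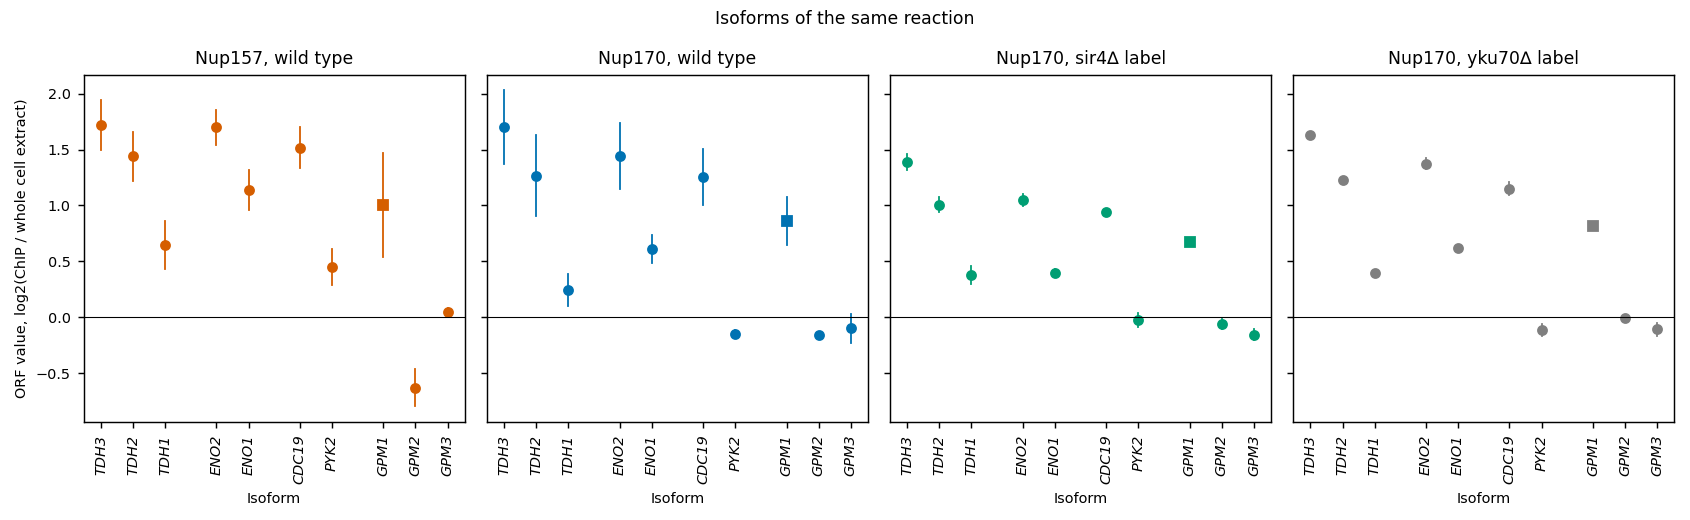
ORF value as log2 ratio (vertical axis) of genes for the same step in each library, with circles for means over at least 2 ORF probes, squares for the single ORF probe of GPM1 and bars joining the 2 hybridisations. TDH3, ENO2 and CDC19 stood above TDH1, ENO1 and PYK2 in all libraries.

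Set against the Nup170 wild-type library, the ORF values of the 9 genes differed by a median of 0.26 for Nup157 (range over the 4 pairings of hybridisations -0.18 to 0.71), -0.27 for Nup170 in the library labelled sir4∆ (-0.63 to 0.083) and -0.068 in that labelled yku70∆ (-0.38 to 0.27). Each range includes 0. The difference was above 0 for 8 of 9 genes for Nup157 (50.5% of all genes) and below 0 for 1 (49.5%). It was below 0 for 8 in the library labelled sir4∆ (55.7%) and above 0 for 1 (44.3%), and below 0 for 6 in that labelled yku70∆ (49.4%) and above 0 for 3 (50.6%). A difference of 0.25 or more, which is 1.19-fold, was reached upward by 5 of 9 genes for Nup157, where 23.5% of all genes reached it, and downward by 0 of 9, where 20.7% did. For the library labelled sir4∆ it was reached downward by 6 of 9 genes, where 1.88% of all genes did, and upward by 0 of 9, where 0.739% did. For that labelled yku70∆ it was reached by 0 of 9 in either direction, where 0.259% of all genes reached it downward and 0.739% upward. The 3 comparisons share the Nup170 wild-type library. The highest 1% of genes started at 0.59 in the library labelled sir4∆ and at 0.81 in the Nup170 wild-type library. Between these libraries the fermentation genes PDC1 and ADH1 differed by -0.36 (-0.85 to 0.13) and -0.38 (-0.78 to 0.011). Lower values in the library labelled sir4∆ were thus also found at high genes outside the 9.

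In the library labelled sir4∆, 4 of 9 genes kept 1 sign in all 4 pairings, against 34.6% of all genes with either sign. All 4 were below 0, and the share of all genes below 0 in all pairings was not computed. These were FBA1 at -0.40 (-0.76 to -0.046), ENO2 at -0.39 (-0.74 to -0.046), CDC19 at -0.31 (-0.57 to -0.048) and ENO1 at -0.22 (-0.38 to -0.056). TDH3 differed by -0.31 (-0.71 to 0.089) and TDH1 by 0.14 (-0.082 to 0.37). The second hybridisation of the Nup170 wild-type library, with a median of 0.90, lay between the 0.80 and 0.93 of the library labelled sir4∆, and the first, at 1.48, lay above both.

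For Nup157, 3 of 9 genes kept 1 sign in all pairings, against 62.5% of all genes: TPI1 at 0.58 (0.15 to 1.01), ENO1 at 0.52 (0.22 to 0.82) and TDH1 at 0.41 (0.046 to 0.77). TDH3 was at 0.018 (-0.54 to 0.57) and FBA1 at -0.20 (-0.62 to 0.21). For the library labelled yku70∆ it was TDH1 alone, at 0.16 (0.012 to 0.31), 1 of 9 against 30.3% of all genes. The shares of genes with 1 sign were below the background for Nup157 and yku70∆. The Nup157 median turned negative, at -0.19, once the trend of ratio on intensity was removed, and the median of the library labelled sir4∆ was 0.083 in the second hybridisations alone.

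**Figure D4:**
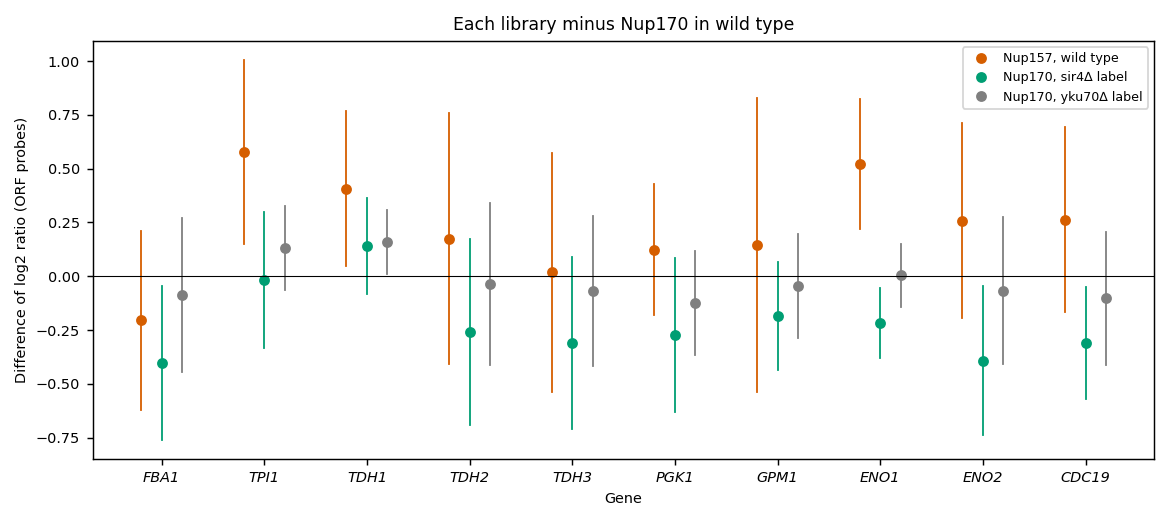
Difference of the ORF value of each gene from the Nup170 wild-type library (log2, vertical axis) for the other 3 libraries, with bars for the range over the 4 pairings of hybridisations. The bars of most genes cross 0, and those of FBA1, ENO1, ENO2 and CDC19 lie below 0 for the library labelled sir4∆.

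The other lists of glucose metabolism had lower medians than the 9 genes, with single genes as high. Of 6 genes of upper glycolysis, 3, 4, 0 and 2 reached an ORF value of 0.5, with medians of 0.58, 0.53, 0.29 and 0.42. HXK1, a hexokinase repressed by glucose, was the lowest of them in each library, and the highest was HXK2, the hexokinase used on glucose, for Nup157 and for yku70∆, and PGI1, phosphoglucose isomerase, in the other two. The fermentation genes had medians of 0.63, 0.37, 0.25 and 0.38, with 5, 2, 2 and 2 reaching 0.5, and PDC1, the main pyruvate decarboxylase, stood among the members' values at 1.61, 1.53, 1.17 and 1.37. ADH1, the main alcohol dehydrogenase of fermentation, was picked out after its values were seen and stood there too, at 1.54 ± 0.43, 1.44 ± 0.50, 1.06 ± 0.062 and 1.34 ± 0.0037. The lowest of the fermentation genes was ADH3, at 0.18, for Nup157, and PDC6, at -0.12, -0.10 and -0.066, for Nup170. The gluconeogenesis genes FBP1 and PCK1, repressed on glucose, had medians of 0.089, -0.15, -0.079 and -0.16, and neither reached 0.5. The glycerol branch (GPD1 and GPD2) had medians of 0.70, 0.27, 0.17 and 0.17, and both genes reached 0.5 for Nup157 only. Of the regulators GCR1, GCR2, RAP1 and TYE7, the median was 0.15, 0.13, 0.11 and 0.12, and TYE7 for Nup157 was the single one to reach 0.5.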

How the data were processed

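Per the file headers, the deposited intensity columns hold spot and local background brightness for both channels of 2 hybridisations, and intensities normalised by the authors. Agilent Feature Extraction is named in the submitters' processing notes. The deposited log2 columns hold log2 of normalised ChIP over normalised extract signal per hybridisation and combined, and the authors' 0 or 1 marks (other) say which spots to leave out. These log2 values were checked against the normalised signals and the values matrix. The sources used here name no genome build.

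Probes marked by the authors and 295 mitochondrial probes were left out, which left 41409 to 41430 probes per library. Each hybridisation was centred on its median and the 2 were averaged, as 1 sample per library. Values for genes were taken on all genes as the report defines them. Probes count as near blank when the extract foreground was at most 2.6 SDs above the mean of 660 blank spots in at least 1 hybridisation. With 1 library per group no test was made, and precision is limited by the number of arrays. The text names the 10 members, 6 rarely used relatives, genes of 5 pathway lists by count with the highest and lowest, and genes that check the labels. The members and lists were chosen with earlier results of these data known. The computation was tested on simulated data for 200 genes. Python 3.11.15 with numpy 2.4.6, pandas 2.3.3, statsmodels 0.14.6 and matplotlib 3.10.9 was used, with R 4.3.3 and limma 3.58.1 for normexp. Alternatives were single hybridisations, the authors' combined ratio, normexp background correction with an offset of 50, removal of the trend on intensity (lowess span 0.2), other probe rules, and scaling by spread. Promoter sequences were not analysed here.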

Additional observations from a re-analysis of the deposited data

How the results depend on the processing

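Of 175 repeats of 16 results, 123 moved by less than the spread between hybridisations or kept their count, 48 moved and 4 reversed. For the isoform pairs of the Nup157 library that spread was 0.00025, so values that still round to the main value of 0.81 were counted as moved. The ORF level, the excess of ORF over upstream and the isoform pairs kept their sign in 44 of 44 alternatives each, and the differences from the Nup170 wild-type library did in 29 of 36. Where 4 values stand together, they follow the order of the report. With normexp background correction the ORF level was 2.16, 2.15, 1.66 and 2.06, the ORF excess 1.92, 2.75, 1.64 and 2.63, the pairs 1.19, 1.86, 1.44 and 1.72, and the upstream difference at 250 to 500 bp was 1.18. With the trend on intensity removed, the ORF level was 0.70 for Nup157, 0.72 for sir4∆ and 0.78 for yku70∆, the ORF excess 0.85, 0.97 and 1.14, the pairs 0.66, 0.69 and 0.82, the upstream difference 0.52, and the Nup157 difference reversed to -0.19. With all probes of the gene, the ORF level was 0.71, 0.59, 0.45 and 0.58 and the pairs 0.50, 0.61, 0.42 and 0.53. The first hybridisation alone gave a Nup157 difference of -0.18, pairs of 0.81 for Nup157 and an ORF excess of 1.29 for yku70∆. The second alone gave a sir4∆ difference of 0.083, pairs of 0.81 for Nup157 and an ORF excess of 0.93 for sir4∆. Divided by the lower-side spread of each library, the Nup157 difference was -2.69 and the yku70∆ difference 1.03, in units of that lower-side spread. The authors' combined ratio gave pairs of 0.81 for Nup157 and an ORF level of 0.79 for sir4∆. Medians over probes gave pairs of 0.84 for Nup157 and 0.85 for sir4∆, and for yku70∆ an ORF level of 1.14 and an ORF excess of 1.50. Leaving out members with a close paralog gave an ORF excess of 1.05 for Nup157. The stretch 250 to 500 bp upstream, with its alternatives, was chosen after seeing the data. Of the other alternatives chosen then, 1 ORF probe as the minimum gave pairs of 1.01 for Nup157 and 0.88 for yku70∆, and leaving out TDH3 and TDH2 as a pair gave 1.07 for Nup157, 0.97 for sir4∆ and 1.23 for yku70∆. The causes were not tested. No paired analysis was possible because each group has 1 library. The signal over background limits dim probes, of which 1 of the 65 was near blank in each library.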
